A study of Equus caballus with 10 samples.

Results

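The comparison described here is that of labelled against unlabelled extracellular vesicles (EVs) in EV-recipient synoviocytes, the fibroblast-like lining cells of the horse joint. It takes 5 of the 10 libraries of the series, namely those made from recipient synoviocytes, and leaves the 5 chondrocyte libraries out. In 4 libraries (labelled replicates 1 to 4), synoviocytes from 4 horses had been kept for 24 h with EVs pooled from the chondrocytes of 8 horses, which had been cultured for 48 h with 5-ethynyl uridine (5-EU). In the remaining library, the EV-recipient control, synoviocytes of another horse had received EVs from the chondrocytes of 2 horses that were cultured in parallel with no 5-EU. All 5 recipient cultures were grown at 25% oxygen. The control carries the same kind of sample label as the others and was recognised by the group row of the deposited tables, which marks it as the negative synoviocyte sample, and by the study's figures. The horse, the EV donors, the EV pool and the label all differed between the control and the labelled libraries, so their parts in any difference cannot be told apart. The labelled EVs came from a single pool, so the labelled libraries are separate recipient horses but not separate EV preparations.

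EVs are small membrane particles that cells release and take up, and microRNAs (miRNAs), short RNAs that lower the output of target mRNAs, are among their cargo. Cells that are given 5-EU use it in place of uridine when they transcribe RNA. Click chemistry couples biotin to its alkyne group, and streptavidin beads then pull down the labelled RNA, so that RNA made in the donor cells can in principle be recovered from the recipient cells. RNA without the analogue has nothing for the biotin to couple to, and a capture from cells given unlabelled EVs therefore measures what the beads retain without it. Synthetic spike-in RNAs were added to the captured RNA when the libraries were made. A count of miRNA per spike-in count follows the amount of miRNA that entered the library, whereas RPM, in which every library is scaled to the same miRNA total, gives only the make-up of that miRNA. The roles given below for single miRNAs are background known from humans and mice.

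The control held fewer miRNA counts per spike-in count than 3 of the 4 labelled libraries and more than the remaining one. Labelled replicates 1 to 4 had 436475, 192282, 32269 and 17151 miRNA counts, and the control had 20330. Their spike-in counts were 175072, 204913, 134931 and 270632 in the labelled libraries and 258552 in the control. Per 100 spike-in counts, the miRNA counts were thus 249, 93.8, 23.9 and 6.34 in labelled replicates 1 to 4 and 7.86 in the control. The mean of the labelled libraries was 0.934 ± 1.11 miRNA counts per spike-in count (SD, n = 4), against 0.0786 in the control, 11.9-fold lower and 5.26-fold lower without replicate 1. The labelled libraries themselves spanned 39.3-fold, and the control was 1.24-fold above the lowest of them and 3.04-fold below the next. With 1 control library no test can be made, and each value below is placed against the lowest and the highest labelled library. These placements are descriptions of 5 libraries. A floor of 3 counts corresponded to 6.87, 15.6, 93.0 and 175 RPM in labelled replicates 1 to 4 and to 148 RPM in the control. Intervals are 95% Wilson intervals, and like the floors they cover counting error only, since reads amplified without molecular identifiers are not independent molecules.

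**Figure D1:**
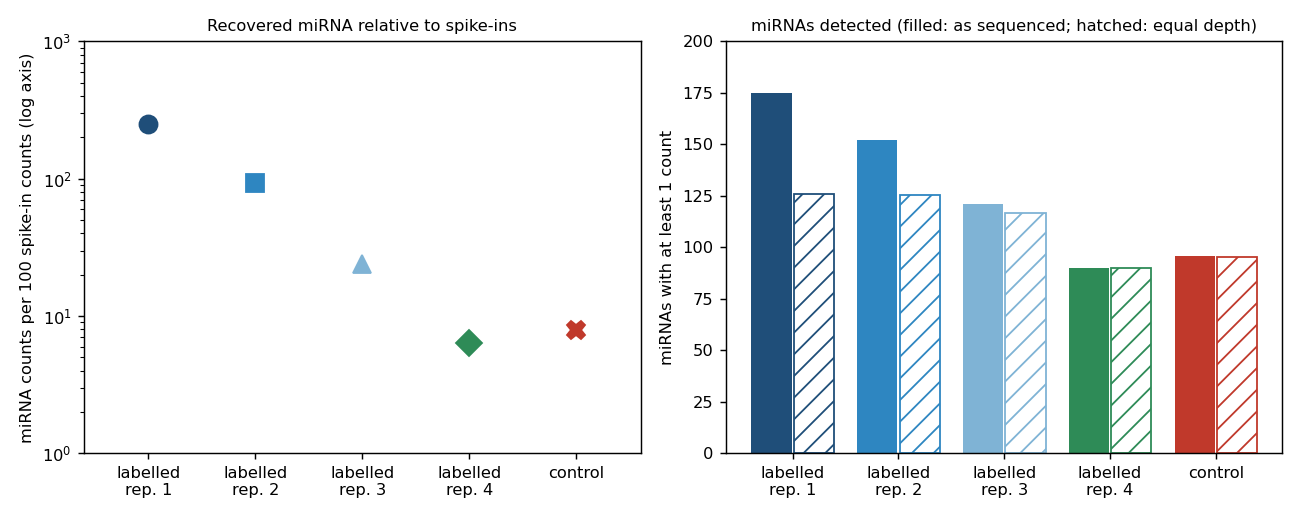
miRNA counts per 100 spike-in counts on a log axis (left) and the number of miRNAs with at least 1 count (right; filled bars, as sequenced; hatched bars, expected at the 17151 miRNA counts of the smallest library) in the 4 labelled libraries and the control. Each point or bar is 1 library; the control lies at 7.86 miRNA counts per 100 spike-in counts, between labelled replicate 4 at 6.34 and labelled replicate 3 at 23.9.

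miRNAs were readily found without the label. Of the 239 miRNAs in the table, 198 had a count in at least 1 of the 5 libraries and 96 had one in the control. The labelled libraries held 175, 152, 121 and 90, and at the depth of the smallest library the expected numbers were 126, 125, 117 and 90.0 for labelled replicates 1 to 4 and 95.3 for the control. At that equal depth the control was thus above labelled replicate 4 and below the other 3. Of the miRNAs in the control, 94 were also present in a labelled library. The other 2, miR-409-3p and miR-449a, had 1 count each. A further 102 miRNAs had counts in labelled libraries and none in the control, and together they made up 0.784 to 1.52% of the labelled counts. Present in all 4 labelled libraries and at 0 in the control were 8 miRNAs: miR-146a, miR-486-5p, miR-676, miR-146b-5p, let-7d, miR-1543, miR-361-3p and miR-148b-3p. For the last 3 the labelled mean was under the control's own floor of 3 counts, and of the 102 only 15 had a labelled mean above it, so that the absence of the others was not detectable at this depth.

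Labelled replicate 4 stood apart from the other labelled libraries in the rank order of its miRNAs, besides holding the least miRNA. Over the 77 miRNAs that passed a filter on low values (a mean of at least 583 RPM over the 5 libraries, the value of 10 counts in the smallest of them), Spearman's rho between labelled replicates 1, 2 and 3 was 0.944 to 0.968. Replicate 4 reached 0.781, 0.796 and 0.828 with these, and the control 0.817, 0.824 and 0.811. Between the control and replicate 4 rho was 0.778. By the share of counts that a pair of libraries had in common, labelled pairs held 74.8 to 88.4% and pairs with the control 62.3 to 77.6%. By that share replicate 4 did not stand apart. It held 74.75, 84.45 and 81.27% with replicates 1, 2 and 3, while replicate 1 held 80.67 and 79.58% with replicates 2 and 3. The part of low depth in the rho of replicate 4 was not tested. These correlations are over miRNAs within pairs of libraries, describe the libraries only, and were looked at after the values had been seen. The counts of placements over the 77 miRNAs, and the ratios of some miRNAs, are given with and without it below. Other ratios to the labelled mean also moved without replicate 4. That of miR-23a went from 1.02 to 1.26, and that of miR-28-5p from 4.49 to 3.60.

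The control RPM lay above the range of the labelled libraries for 30 of the 77 miRNAs (39.0%), inside it for 27 and below it for 20 (26.0%). For 13 of those above (16.9% of the 77) the control was also at least 2-fold over the labelled mean, and for 17 of those below (22.1%) it was at most 0.5 times that mean. The 77 miRNAs held 98.6% of the control counts and 98.7 to 99.4% of the labelled counts. The miRNAs above the range took up 54.9% of the control counts against 26.1 to 34.8% of the labelled counts. Those below it took up 21.0% of the control counts against 39.7 to 57.6%. When counting error was allowed for, so that the interval of the control had to clear that of every labelled library, 15 miRNAs remained above and 7 below. The 7 were let-7c, miR-143, miR-146a, miR-181a, miR-181b, miR-21 and miR-660. Without replicate 4 the control was above the range of the other labelled libraries for 38 miRNAs and below it for 25. The filter uses the mean of all 5 libraries, so a miRNA that is high in 1 library can pass through that library alone. Both miR-130a and miR-193a-3p, counted among the 30 above, passed through the control, with means of 368 and 459 RPM over the 4 labelled libraries. Without replicate 4, 9 of the 77 had a mean under the filter: miR-130a, miR-144, miR-193a-3p, miR-19a, miR-30d, miR-340-3p, miR-425, miR-486-5p and miR-744. Of these, miR-19a and miR-486-5p were counted among the 20 below. So were miR-340-5p, under the filter without replicate 3, and miR-676, under it without replicate 2 or without replicate 3. The lowest values that passed were 584 RPM for miR-193a-3p, 590 for miR-130a and 610 for miR-30d, and the highest that did not were 545 for miR-8992, 541 for miR-872 and 509 for miR-146b-5p.

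**Figure D2:**
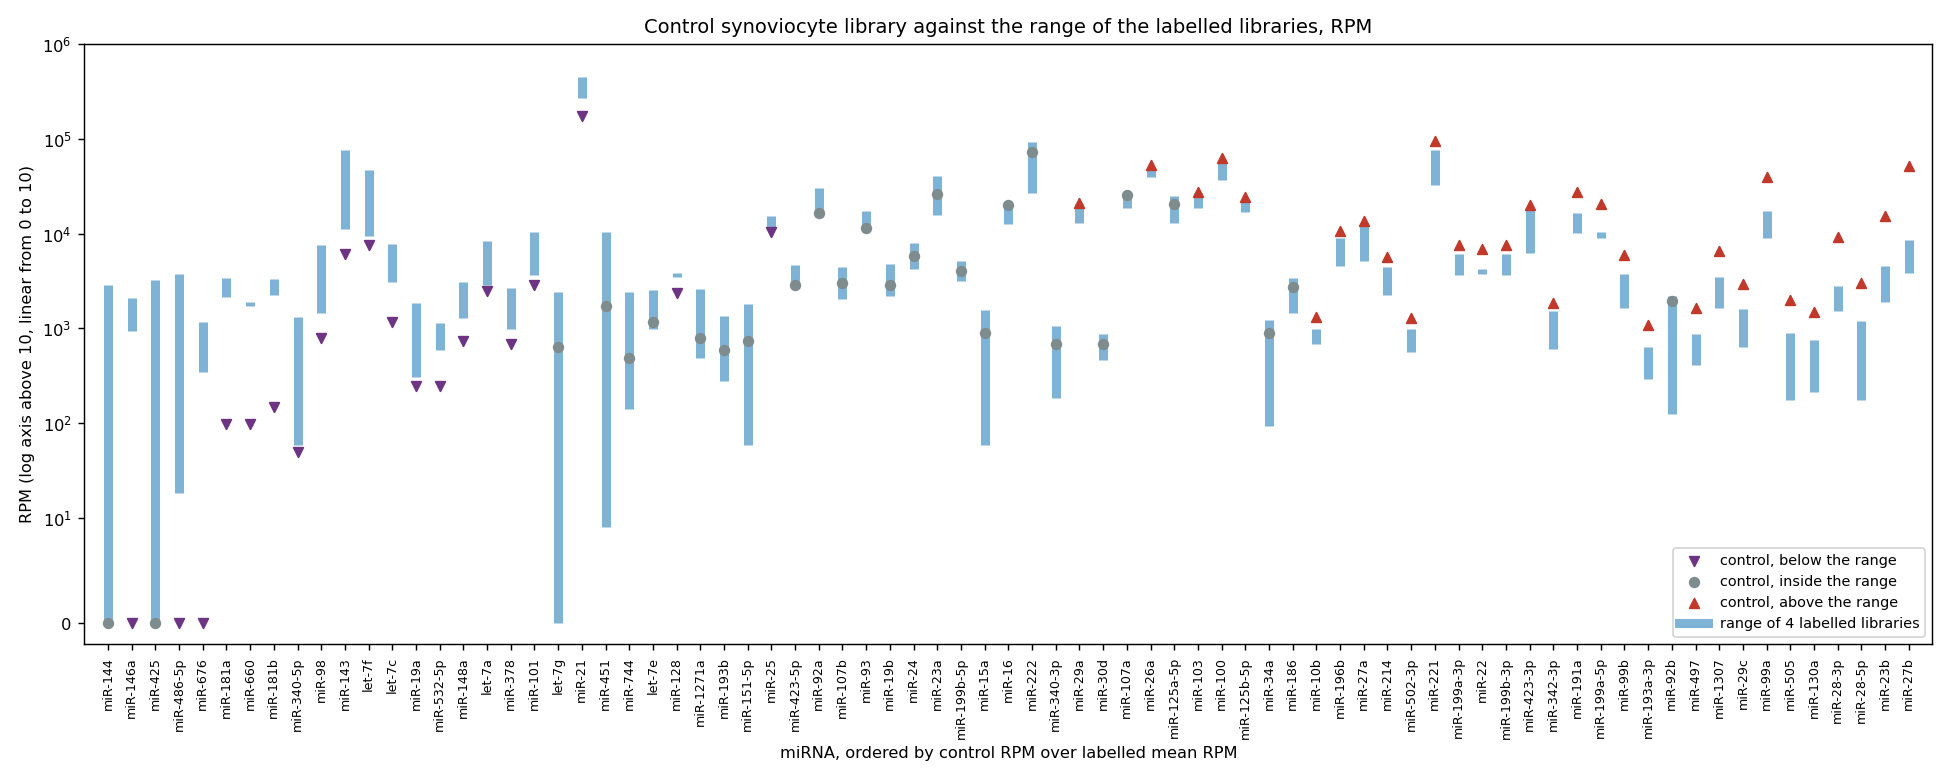
RPM of the 77 filtered miRNAs, ordered by the ratio of the control to the labelled mean (vertical axis logarithmic above 10 RPM and linear below). Bars span the lowest to the highest of the 4 labelled libraries and symbols show the control, which lay below the bar for 20 miRNAs, inside it for 27 and above it for 30.

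The miRNA that stood farthest above the labelled range was miR-27b, a regulator of fat cell differentiation and lipid genes that is made from the same cluster as miR-23b. miR-27b was at 6731, 4410, 8460 and 3848 RPM in labelled replicates 1 to 4 and at 51746 RPM in the control (interval 48785 to 54877). The control was 6.12-fold over the highest of the 4 labelled libraries and 8.83-fold over their mean of 5862 ± 2135 RPM (SD, n = 4). Its cluster partner miR-23b was at 3966, 1898, 2975 and 4606 RPM in the labelled libraries and at 15347 RPM in the control, 4.57-fold over the labelled mean. The related miR-23a and miR-27a come from a separate cluster, and they behaved differently. miR-27a, at 5109 to 12652 RPM in the labelled libraries, was at 13724 RPM in the control, just above the range, and fell inside the range once the libraries were scaled by any of the 3 other methods tried. miR-23a lay inside the range, at 1.02 times the labelled mean. So did miR-24, listed here with both clusters, at 0.94 times that mean. The 5 members of these clusters together came to 35679, 42365, 51783 and 69325 RPM in labelled replicates 1 to 4 and to 112937 RPM in the control.

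Both arms of the miR-28 hairpin were also above the range. miR-28-3p was at 2779, 2528, 1518 and 1749 RPM in labelled replicates 1 to 4 and at 9149 RPM in the control, 4.27-fold over the labelled mean. miR-28-5p was at 1207, 1077, 217 and 175 RPM and at 3000.5 RPM in the control, 4.49-fold over the mean. For the 5p arm replicates 3 and 4 were far below replicates 1 and 2, and the control was 2.49-fold above the highest of the 4.

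The miR-99/100 family, whose members are known to target the growth regulator mTOR, was high in the control as well. miR-99a was at 9048, 9829, 15185 and 17259 RPM in the labelled libraries and at 39990.2 RPM in the control, 3.12-fold over the labelled mean of 12830.0 ± 4019.5 RPM (SD, n = 4). The control was 2.32-fold over the highest labelled library. miR-99b reached 6001 RPM in the control against 1643 to 3781 RPM, 2.30-fold over the mean. The more abundant miR-100 was at 36383 to 59408 RPM in the labelled libraries and at 62371 RPM in the control, a ratio of 1.25 that fell to 0.97 when the libraries were scaled by trimmed mean of M values (TMM). In humans miR-99a is made together with let-7c and a copy of miR-125b, and the members of that unit did not move together: let-7c, at 3090.2 to 7778 RPM in the labelled libraries, was at 1181 RPM in the control, 4.12-fold lower than the labelled mean. miR-125b-5p was at 16909 to 21614 RPM and at 24250 RPM in the control, a ratio of 1.29.

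Of the mesenchymal and fibroblast list, 6 of 10 filtered members were above the range, against 30 of all 77 (39.0%). The most abundant members of the list, miR-21 and miR-143, were below it. miR-199a-5p and miR-214, made from a shared transcript in cells of mesodermal origin, differed in how tightly the labelled libraries agreed. miR-199a-5p was at 9015, 9985, 10072 and 10378 RPM in labelled replicates 1 to 4 and at 20315 RPM in the control, 2.06-fold over the labelled mean. miR-214 was at 2234 to 4494 RPM and at 5657 RPM in the control, 1.59-fold over the mean. The 3p products miR-199a-3p and miR-199b-3p have near-identical sequences and their reads cannot be assigned with certainty. Both are among the 6, so they may be 1 signal counted under both names. Each was at 7624 RPM in the control, against 3629 to 6142 and 3647 to 6038 RPM. miR-22, at 3732 to 4233 RPM in the labelled libraries, was at 6886 RPM in the control. Outside that list, miR-191a was at 10097, 13449, 15340 and 16384 RPM in labelled replicates 1 to 4 and at 27398 RPM in the control, a ratio of 1.98. miR-221, which together with miR-222 represses the cell cycle inhibitor p27, was at 32171, 72352, 56029 and 76031 RPM and at 95573 RPM in the control, a ratio of 1.62. Its cluster partner miR-222 lay inside the range, at 73094 RPM in the control against 26664 to 92764 RPM.

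Less abundant miRNAs among the 10 largest ratios rest on fewer counts. miR-130a was at 254, 213, 248 and 758 RPM in labelled replicates 1 to 4 and at 1476 RPM in the control, 4.01-fold over the labelled mean and 6.19-fold without replicate 4. It passed the filter through the control. miR-505 was at 667, 640, 899 and 175 RPM and at 2017 RPM in the control, 3.39-fold over the mean. miR-29c, of a family that represses collagen and other matrix genes, was at 2951 RPM in the control against 635 to 1602 RPM, while the more abundant miR-29a differed by a ratio of only 1.16, at 21053 RPM in the control against 12952 to 20453 RPM. miR-1307 and miR-497 were 2.48-fold and 2.43-fold over the labelled mean, at 6542 and 1623 RPM in the control. Of these, miR-505, miR-29c and miR-1307 stayed above the range beyond counting error, and miR-130a, miR-497 and miR-29a did not.

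The miRNA with most counts in every library, miR-21, was below the labelled range in the control. miR-21, which is widely induced in activated fibroblasts, was at 445226, 293148, 267006 and 300915 RPM in labelled replicates 1 to 4 and at 173979 RPM in the control. The control was 1.53-fold under the lowest labelled library and 1.88-fold under the labelled mean of 326574 ± 80420.5 RPM (SD, n = 4). Since miR-21 takes up so much of each library, the share left for all other miRNAs was 1.23-fold larger in the control than in the labelled mean, and all RPM ratios move with it. The median log2 ratio of the control to the labelled mean, over the 72 miRNAs with control counts, was 0.21 in RPM, -0.12 with TMM, -0.03 with median-of-ratios size factors and -0.08 when scaled to the counts other than miR-21. Of the 30 miRNAs above the range in RPM, 21 were above it under all 3 other scalings as well. The other 9 were miR-100, miR-103, miR-10b, miR-125b-5p, miR-196b, miR-26a, miR-27a, miR-29a and miR-423-3p. All 20 below the range in RPM were below it under each of those scalings, and 5 more (miR-107b, miR-24, miR-423-5p, miR-92a and miR-93) moved from inside to below under at least 1 of them.

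The miR-181 family, known for setting signalling thresholds in mouse T cells, had the lowest ratio among miRNAs with control counts. miR-181a was at 2131, 2814, 3440 and 2565 RPM in labelled replicates 1 to 4 (930, 541, 111 and 44 counts) and at 98.4 RPM in the control (2 counts). The ratio of the control to the labelled mean was 0.0359, with a counting interval of 0.00986 to 0.131. miR-181b was at 2277, 2392, 3316 and 2391 RPM (994, 460, 107 and 41 counts) and at 148 RPM in the control (3 counts), a ratio of 0.0569 (0.0193 to 0.167). The labelled libraries were close to each other for both miRNAs although they differed in depth, and the control was far under all of them, labelled replicate 4 with its smaller total included.

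miR-660 showed the same form. It was at 1853, 1737, 1921 and 1866 RPM in labelled replicates 1 to 4 (809, 334, 62 and 32 counts) and at 98.4 RPM in the control (2 counts), a ratio of 0.0533 (0.0146 to 0.194). The labelled libraries again lay close together. In humans miR-660 belongs to an X-linked cluster with miR-532 and miR-502. miR-532-5p was likewise below the range, at 246 RPM (5 counts) against 589 to 1139 RPM, whereas miR-502-3p was above it, at 1279 RPM against 564 to 992 RPM.

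miR-143, which is abundant in smooth muscle cells and fibroblasts, was at 36300, 11187, 75552 and 29736 RPM in labelled replicates 1 to 4 and at 6149 RPM in the control, 6.21-fold lower than the labelled mean of 38194 ± 27081 RPM (SD, n = 4). The labelled libraries varied widely, and the control was 1.82-fold under the lowest of them.

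Summed with miR-98, the let-7 family, which represses growth-promoting genes and whose members share a seed with miR-98, was low in the control and in labelled replicate 4. let-7f, the most abundant member, was at 42841, 44898, 46577 and 9446 RPM in labelled replicates 1 to 4 and at 7673 RPM in the control, 4.68-fold lower than the labelled mean. miR-98 was at 7652, 6636, 7314 and 1458 RPM and at 787 RPM in the control, 7.33-fold lower. For both, replicates 1, 2 and 3 were close together, replicate 4 was far under them, and the control was under replicate 4. That last step was within counting error, at 156 control against 162 replicate 4 counts for let-7f and 16 against 25 for miR-98. Of the family only let-7c was below the range beyond counting error. Without replicate 4 the control was at 0.171 times the labelled mean for let-7f, against 0.213 with it, and at 0.109 times for miR-98, against 0.137. let-7a and let-7c were also below the range, and let-7e and let-7g were inside it. let-7d, which did not pass the filter, had 33, 37, 23 and 17 counts in the labelled libraries and 0 in the control. Unlike the sum, let-7d was highest in replicate 4, at 75.6, 192, 713 and 991 RPM in labelled replicates 1 to 4. Summed over the family, the values were 65140.0, 66985, 73693 and 18833 RPM in labelled replicates 1 to 4 and 13920.3 RPM in the control.

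miR-146a, an inhibitor of NF-κB signalling that is induced by inflammatory stimuli, had 413, 318, 67 and 20 counts in labelled replicates 1 to 4, or 946, 1654, 2076 and 1166 RPM. It was at 0 of 20330 counts in the control, which allows up to 148 RPM, so against this floor the control was at least 9.90-fold lower than the labelled mean. The Wilson limit for 0 counts is wider, at 189 RPM, and allows a ratio of up to 0.129. Its near relative miR-146b-5p, below the filter, had 218, 65, 40 and 8 counts and also 0 in the control. Against the floor that was at least 4.31-fold lower, and the Wilson limit allows a ratio of up to 0.297. miR-676 had 268, 200, 38 and 6 counts and 0 in the control, at least 5.39-fold lower than the labelled mean against the floor. The Wilson limit allows a ratio of up to 0.238, and miR-676 was not below the range beyond counting error. miR-340-5p had 1 count in the control, a ratio of 0.0582 (0.0103 to 0.33), but it also had 1 count in replicate 4, while the other arm, miR-340-3p, lay inside the range at 689 RPM against 186 to 1049.5 RPM.

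Scaled to the spike-ins, no miRNA that passed the filter was above the labelled range in the control (0 of 77, 0.0%), 49 were inside it and 28 were below it (36.4%). The control was the lowest of the 5 libraries for those 28 and tied for lowest at 0 for 2 (miR-144 and miR-425). It was the second lowest for 41 and the median for 6, namely miR-1307, miR-130a, miR-23b, miR-27b, miR-28-3p and miR-28-5p. All 30 miRNAs above the range in RPM were inside it per spike-in count. Of the 20 below it in RPM, 17 were also below per spike-in count, and the other 3, let-7a, let-7f and miR-340-5p, were not. These counts turn on replicate 4: without it the control was below the remaining labelled libraries for 66 of the 77 miRNAs, inside for 11 and above for 0, while without replicate 1, 2 or 3 it was below for 30, 29 and 30. Against replicate 4 alone, the control held more counts per spike-in count for 44 miRNAs and fewer for 33, with a median ratio of 1.18 over the 76 with counts in that library.

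Per 100000 spike-in counts, miR-27b was at 1678, 414, 202 and 24.4 in labelled replicates 1 to 4 and at 407 in the control. The control thus held nearly as much miR-27b per spike-in as replicate 2 and 16.7 times as much as replicate 4. miR-143 was at 9050.0, 1050, 1807 and 188 and at 48.3 in the control, and miR-181a was at 531, 264, 82.3 and 16.3 and at 0.774. For miR-143 and miR-181a the control was lower than every labelled library, at 0.257 and 0.0476 times the value of replicate 4. miR-21 was at 1368 per 100000 spike-in counts in the control against 1907 in replicate 4, the lowest of the labelled libraries. Beyond counting error, 14 of the 28 miRNAs stayed below the labelled range.

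**Figure D3:**
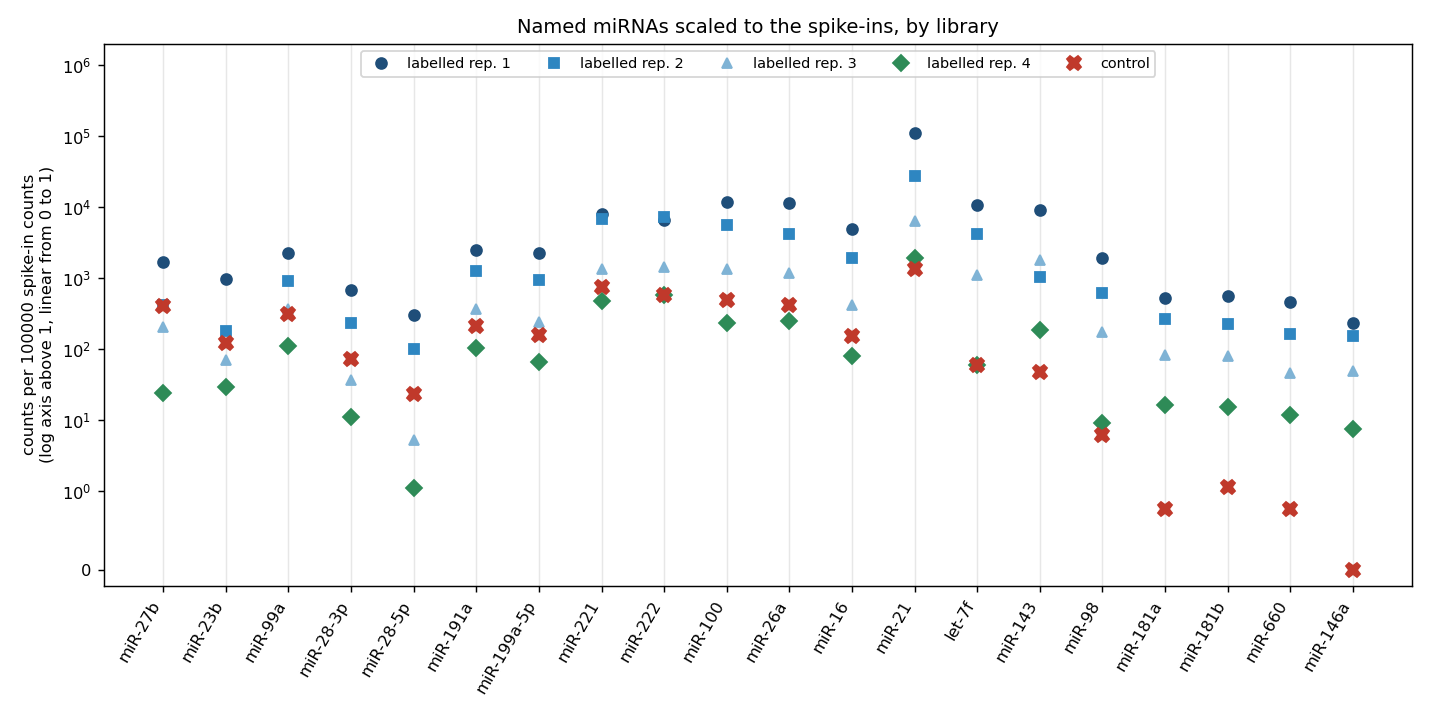
Counts per 100000 spike-in counts of 20 miRNAs in each of the 5 libraries (vertical axis logarithmic above 1 and linear below). The control (crosses) lies among the labelled libraries from miR-27b to miR-191a, near replicate 4 for let-7f, and under all labelled libraries for miR-222, miR-21, miR-143, miR-98, miR-181a, miR-181b, miR-660 and miR-146a.

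By groups of miRNAs, the numbers above, inside and below the range in RPM were 4, 1 and 0 in the miR-99/100 and miR-125 list, 3, 2 and 0 in the miR-23/27/24 clusters and 6, 2 and 2 in the mesenchymal and fibroblast list. Over all 77 they were 30, 27 and 20. With TMM they became 2, 3 and 0, then 2, 2 and 1, and then 5, 3 and 2 in these lists, and 21, 31 and 25 over all 77. The let-7 and miR-98 list had 0 of 6 above, 2 inside and 4 below, and the miR-181 list 0, 0 and 2. The miR-17/92 cluster and its paralogues, which are linked to cell proliferation, had 0 of 6 above, 4 inside and 2 below (miR-25 and miR-19a); their sum, 43876 RPM in the control against 42704 to 64136 RPM, was inside the range in RPM and below it under the 3 other scalings. Lists with 2 members above and none elsewhere were miR-29 and the miR-10 and miR-196 genes of the HOX clusters, and the sums of both lay inside the range under the other scalings. The mesenchymal list as a sum was below the range, at 234530.3 RPM against 339673 to 509402 RPM, since miR-21 and miR-143 make up most of it. Per spike-in count no list had a filtered member above the range.

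**Figure D4:**
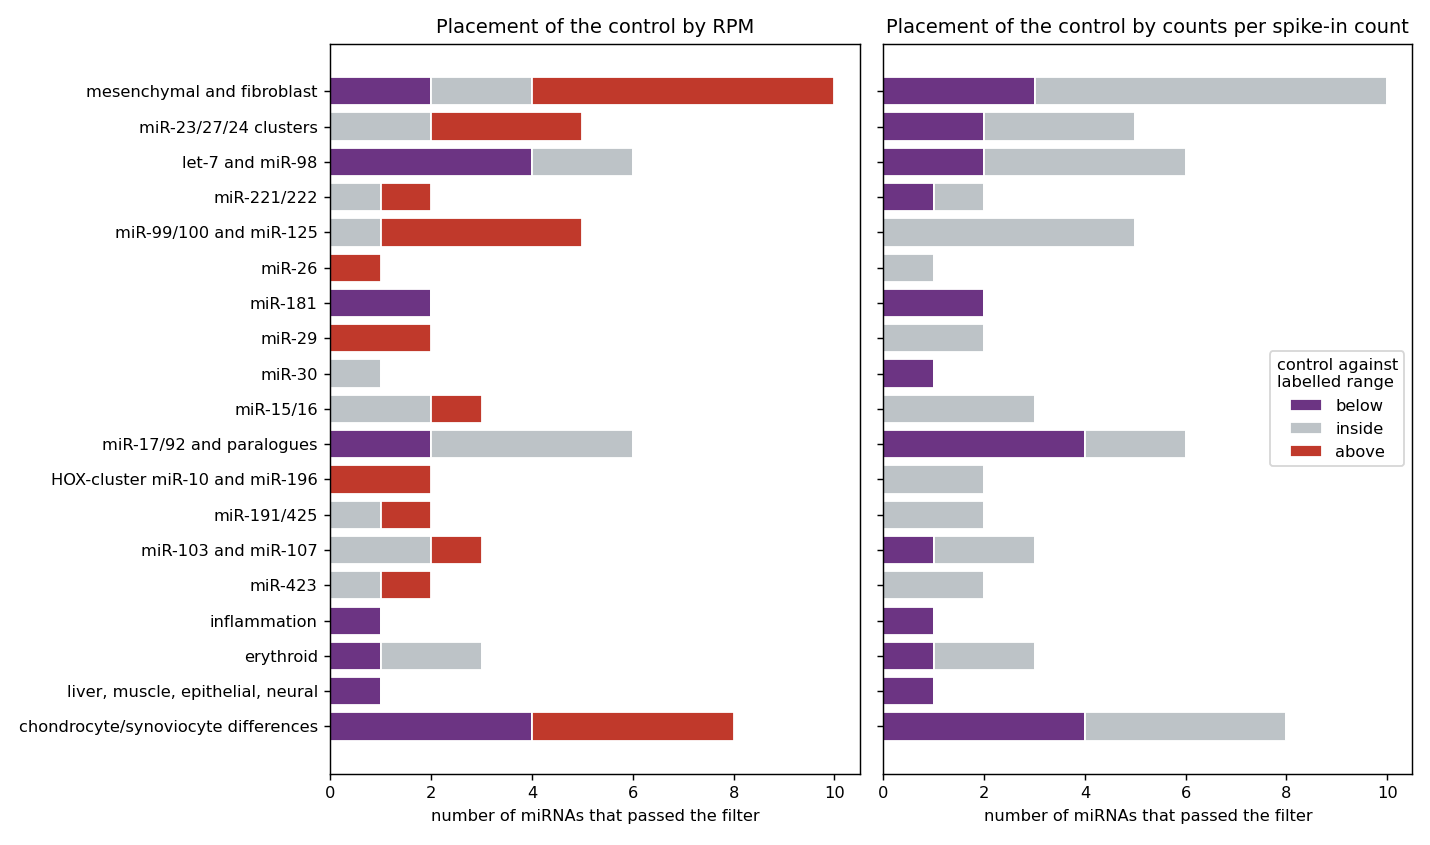
Number of filtered miRNAs of each list that lay below, inside or above the range of the 4 labelled libraries in the control, by RPM (left) and per spike-in count (right). In RPM the miR-99/100 and miR-125 list had 4 of 5 above and the let-7 and miR-98 list 4 of 6 below; per spike-in count no list had a member above.

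Markers of other cell types were sparse or uneven. The cartilage miRNAs miR-140-5p and miR-140-3p, which mark the donor cell type, did not pass the filter and came to 61.9, 182, 62.0 and 0 RPM in labelled replicates 1 to 4 and to 787 RPM in the control. The control value rests on 13 counts of miR-140-5p and 3 of miR-140-3p. Per 100000 spike-in counts their sum was 15.4, 17.1, 1.48 and 0 in labelled replicates 1 to 4. In the control it was 6.19, inside that range. The erythroid list (miR-451, miR-144 and miR-486-5p) came to 27.5, 1165, 1890.4 and 16967 RPM in labelled replicates 1 to 4 and to 1722 RPM in the control, inside a range set by replicate 4. Within it, miR-486-5p had 8, 48, 6 and 65 counts and 0 in the control. Against the floor the control was at least 7.19-fold lower than the labelled mean, and the Wilson limit allows a ratio of up to 0.178. That mean is carried by replicate 4, and without it the labelled mean was 151 RPM, 1.03 times the control floor. miR-451 was at 9.16, 884, 1518 and 10320.1 RPM and at 1722 RPM in the control, 0.541 times the labelled mean and 2.14 times that mean without replicate 4. The leukocyte and endothelial lists had no member that passed the filter and were at 0 RPM in the control, against 0 to 217 and 0 to 93.0 RPM in the labelled libraries. The part of other cells in the differences above was not tested.

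The study drew 9 miRNAs from its contrast of recipient chondrocytes with recipient synoviocytes. That contrast used the same 4 labelled libraries, so the values that follow are not independent of the choice. Of the 8 that passed the filter, miR-27b, miR-23b, miR-191a and miR-199a-5p were above the labelled range in RPM and miR-143, miR-21, miR-181a and miR-181b were below it, with none inside, against 30 above, 27 inside and 20 below over all 77. Per spike-in count the first 4 were inside the range and the last 4 below it, against 28 of the 77 below. The ninth, miR-31, had 67, 0, 0 and 0 counts in labelled replicates 1 to 4 and 30 in the control, or 154, 0, 0 and 0 RPM against 1476 RPM. Per 100000 spike-in counts that was 38.3, 0, 0 and 0 against 11.6. The study reported miR-27b, miR-23b, miR-191a, miR-199a-5p and miR-31 as higher in recipient chondrocytes. It reported miR-143, miR-21, miR-181a and miR-181b as higher in recipient synoviocytes. In RPM the control thus departed from the labelled synoviocyte libraries in the reported chondrocyte direction for each of these miRNAs. What this reflects was not tested.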

How the data were processed

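Small RNA was sequenced after 5-EU capture. Per the labels and the study's methods, the authors trimmed adapters with cutadapt 3.3, checked quality with FastQC 0.11.9 and MultiQC 1.10, and mapped reads with Bowtie 1.3.0. The authors deposited whole-number counts for 239 horse miRNAs (eca- names of miRBase) and 8 spike-ins. The deposited RPM of the authors equalled each count scaled to the miRNA total of its library within 0.0472%, spike-ins excluded. RPM here were computed from the counts.

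The control was placed above, inside (ends included) or below the labelled range. The filter was a mean of 583 RPM over the 5 libraries. edgeR 4.0.16 (TMM) and DESeq2 1.42.0 (size factors) in R 4.3.3 gave alternative scalings only; the rest used Python 3.11.15. The placement code was checked on simulated counts with large known changes and counting error only. The simulation had no spread between horses, so it does not show how reliable the placements are here. Columns of the 5 chondrocyte libraries were left out. A comparison by uridine content was not run, as mature sequences were not used here.

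Named miRNAs were the 10 most abundant in the labelled libraries, the 10 largest ratios above and the 10 smallest below the range, up to 5 at 0 in the control, up to 5 with counts in at most 1 labelled library, and up to 3 of each list. Others, such as miR-214, miR-532-5p and miR-502-3p, were named after their values were seen. The 5 libraries, the lists and the rules were chosen with earlier results of these data known.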

Additional observations from a re-analysis of the deposited data

Results flagged for a closer look

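Among 76 groups of 4 labelled values looked at (named miRNAs that passed the filter, list sums and library totals), 12 had 1 library far from the other 3. The measure is the gap of the farthest library to its neighbour over the whole range, against Dixon's 95% critical value, which chance passes in about 1 group in 20. Labelled replicate 4 was the distant library in 11 of them, and since list sums contain named miRNAs these are not separate events. Replicate 4 was low for let-7f (0.899), miR-98 (0.836) and the summed let-7 and miR-98 list (0.844). It was high for miR-130a (0.925), miR-486-5p (0.939), miR-425 (0.990), miR-144 (0.935), miR-92a (0.851), miR-451 (0.854), the summed erythroid list (0.890) and the summed list of liver, muscle, epithelial and neural miRNAs (0.924). In that last list miR-128 has most counts, but it was at 3485 to 3848 RPM in all labelled libraries. Its member miR-200c, below the filter, was at 0, 0, 0 and 1399 RPM (24 counts in replicate 4). miR-181b (0.889) was high in labelled replicate 3. For the miRNAs in which replicate 4 was high, the control was above the range for miR-130a alone. It was at 0 for miR-486-5p, miR-425 and miR-144, and inside the range for miR-92a and miR-451. Without replicate 4, miR-130a, miR-486-5p, miR-425 and miR-144 had a mean under the filter. Their inclusion thus rested in part on the high value of replicate 4. The 12 of 76 groups can therefore not be read against the rate of 1 in 20.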

How the results depend on the processing

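The count of 30 miRNAs above the labelled range in RPM became 47 of 198 when unfiltered and 15 beyond counting error, and 30 to 38 with a labelled library left out. The 20 below became 11 of 47 with the filter at 30 counts and 7 beyond counting error (20 to 25 with a library left out). Per spike-in count, the 0 above became 4 when unfiltered and 1 when the filter was set at 3 counts (0 to 0 with a library left out), and the 28 below became 16 with the filter at 30 counts, 14 beyond counting error and 29 to 66 with a library left out, the last without replicate 4. The control's miRNA counts per spike-in count were 0.0842 times the labelled mean (0.0643 to 0.19 with a library left out, the highest without replicate 1; 0.0535 to 0.105 by single spike-ins). For named miRNAs outside the range, ratios to the labelled mean that turned below 1 were those of miR-100 (0.97 with TMM), miR-26a (0.926 with TMM, 0.989 with median of ratios, 0.957 without miR-21), miR-103 (0.948 with TMM, 0.979 without miR-21) and miR-29a (0.929, 0.981 and 0.955). The ratios of 6 named miRNAs inside the range (miR-222, miR-23a, miR-107a, miR-30d, miR-16 and miR-15a) also turned below 1, to 0.785 at the lowest. Of 482 ratios of named miRNAs under alternatives, 446 moved by less than 1 SD of the labelled libraries. They include miRNAs at 0 in the control, such as miR-146a and miR-676, whose ratio of 0 could not move. The 446 thus overstate how stable the ratios were. The cause of the shifts was not tested. No paired analysis was possible because 1 control library gives no test and replicate numbers pair nothing. Low depth of the control and of replicate 4 limits values under 148 and 175 RPM.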

Other observations

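Among miRNAs below the filter, chosen after their values were seen, miR-149 and miR-215 were above the labelled range in the control both in RPM and per spike-in count. miR-149 had 15, 5, 6 and 0 counts in labelled replicates 1 to 4 and 37 in the control, or 8.57, 2.44, 4.45 and 0 against 14.3 per 100000 spike-in counts. miR-215 had 4, 7, 6 and 0 counts and 12 in the control, or 2.28, 3.42, 4.45 and 0 against 4.64 per 100000 spike-in counts. For miR-215 the step above replicate 3 per spike-in count was thus small. In RPM miR-149 was above the range beyond counting error and miR-215 was not. miR-196a, from the HOX clusters, had 35, 43, 0 and 0 counts and 18 in the control, or 80.2, 224, 0 and 0 against 885 RPM. Per 100000 spike-in counts miR-196a lay inside the range, at 20.0, 21.0, 0 and 0 against 6.96. For miR-149 the control held more counts than labelled replicate 1, although its miRNA total was 20330 against 436475.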
